A study of Mus musculus with 16 samples.

Results

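The genes described here are 9 death and stress genes of T cells: the death receptor Fas, the ligands Fasl and Tnfsf10, the caspase genes Casp1, Casp4 and Casp8, and the stress genes Gadd45a, Gadd45b and Gadd45g. They were chosen by name from a table of 54456 gene rows, and all 9 are in it. The libraries hold RNA of T cells sorted from OT-I mice, which carry a transgenic T cell receptor against an ovalbumin peptide and make mostly CD8 T cells. The 16 libraries form 4 groups of 4: lymph node (LN) or visceral adipose tissue (VAT), each from mice fed for 8 weeks with standard chow (lean) or with a diet of 60% fat by calories (HFD). All groups thus share the OT-I transgene and differ in tissue and diet. A further header line of the count table names every library with Neg-OVA, a term with no explanation in the labels. One label calls the cells freshly isolated and the study's design text says that they were kept in culture overnight before the sort, so the state in which these stress genes were read is not settled by the labels. The animals' ages, and whether libraries of different tissues came from the same animal, are not given in the sources used here.

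Fas ligand and TRAIL (the product of Tnfsf10) are TNF family proteins on the surface of killer cells. When they bind death receptors such as Fas on a target, or on the T cell itself, an adaptor recruits caspase-8, a protease that starts apoptosis, and in T cells caspase-8 also restrains necroptosis. Caspase-1 and caspase-4 (named caspase-11 in much of the mouse literature) are inflammatory caspases that cut gasdermin D and cause pyroptosis, and caspase-1 also matures IL-1 beta and IL-18. The GADD45 proteins are small stress-induced partners of the kinase MEKK4 and of cell cycle proteins. In T cells, Gadd45b and Gadd45g feed p38 signalling that favours interferon gamma, while Gadd45a is a p53 target and restrains an alternative route of p38 activation.

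Library totals ran from 40212388 to 65957407 counts. All levels below are CPM, counts scaled to library size with TMM factors, and on this scale 3 counts equal 0.0437 to 0.0803 CPM. The T cell markers (all 8 above 3 counts in a library of every group) summed to 7112 to 9439 CPM. Within that sum single markers moved apart with tissue. Cd8a had means of 1840 CPM in lean and 2077 CPM in HFD VAT, against 718 and 665 CPM in LN. Cd8b1 was lower in VAT (1368 and 1228 against 2058 and 2072 CPM), and so was Cd5 (13.5 and 14.3 against 186 and 133 CPM). A gene was taken as missing from a library where it had no more than 3 counts although the median of the other libraries of its group was at 10 CPM or more. Such genes made up 13.3% in replicate 1 of lean VAT, 11.4% in replicate 1 and 11.5% in replicate 3 of HFD VAT, against 0.818% to 5.45% in the other 13 libraries. These 3 VAT libraries are retained, and results that turn on them are given without them too. Markers of other cells moved with tissue: 9 B cell markers summed to 1517 to 2637 CPM in LN and 84.3 to 359.8 CPM in VAT, and 8 natural killer markers to 1.04 to 21.6 CPM in LN and 354 to 691 CPM in VAT. Most of the latter was Gzma (367 ± 166 CPM in lean and 390 ± 84.7 CPM in HFD VAT, mean ± SD, n = 4), a granzyme that CD8 cells also make. The natural killer receptor genes Klra7 (55.5 ± 16.2 CPM in lean and 87.5 ± 53.4 CPM in HFD VAT), Klrb1c (21.3 ± 25.0 and 50.2 ± 31.6 CPM) and Klra8 (4.99 ± 1.84 and 4.82 ± 1.80 CPM) were at means of at most 2.00, 0.840 and 0.278 CPM in LN. Klrb1b and Klra4 had means of 0.884 to 3.19 CPM in VAT and at most 0.0844 CPM in LN. Ncr1 had no count in either LN group or in HFD VAT and reached at most 0.801 CPM in lean VAT, and Khdc1a had no count in any library. The macrophage list (12 markers) summed to at most 6.14 CPM in LN and to 27.4 to 145 CPM in VAT, where Cd68 led it (60.9 ± 47.8 CPM in HFD VAT) and the defining gene Adgre1 was at most 0.0268 CPM. The part of these cells in the tissue differences below was not tested. In bulk libraries a smaller share of expressing cells and less RNA per cell cannot be told apart.

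**Figure D1:**
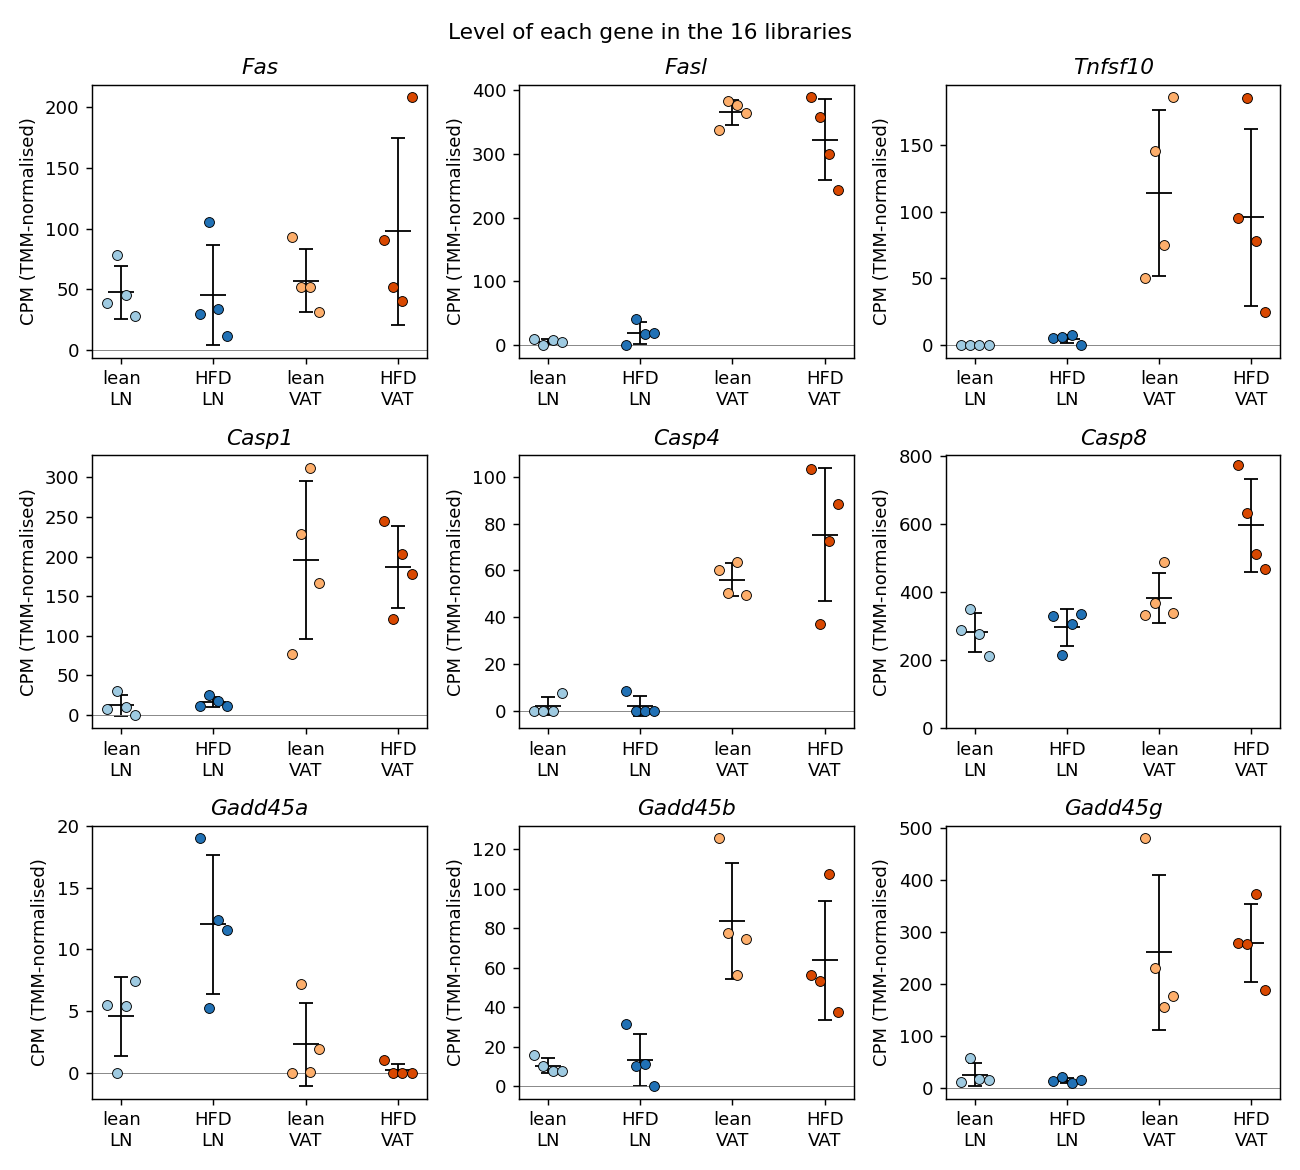
Level of each of the 9 genes (CPM after TMM normalisation, linear axes that differ between panels) in lean LN, HFD LN, lean VAT and HFD VAT. Each point is a library, the long dash is the mean and the bars are 1 SD of 4 libraries. The VAT libraries of Fasl, Tnfsf10, Casp1, Casp4, Gadd45b and Gadd45g all lie above the LN libraries, and those of Fas overlap them. Gadd45a is low or at 0 in HFD VAT, and its lean VAT and lean LN libraries overlap.

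The first question was how VAT and LN cells differ in these genes within each diet. Fasl and Tnfsf10, the death ligand genes, were low in LN and abundant in VAT, Gadd45g rose in both diets, and Fas, the receptor gene, showed no difference that passed the test. In lean animals 3 of the 9 genes rose in VAT by edgeR's quasi-likelihood test at an adjusted p under 0.05 (Fasl, Tnfsf10 and Gadd45g), and none fell. Over all 15675 genes tested 2.12% rose and 0.919% fell in that comparison. On HFD 2 of 9 rose (Casp8 and Gadd45g), and none fell, where 2.68% of all genes rose and 1.88% fell. With the tissue difference averaged over the diets, which uses all 16 libraries, 6 of 9 rose (Fasl, Tnfsf10, Casp1, Casp8, Gadd45b and Gadd45g), where 5.77% of all genes rose and 4.52% fell. The median fitted log2 fold change of the 9 genes was 3.40 in lean animals, 3.53 on HFD and 3.77 over the diets, and that of all genes tested was -0.00289, -0.10 and -0.08. The 9 genes were picked with earlier results of these data known, so these shares describe them and are no test of the set.

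Fasl encodes Fas ligand, the membrane protein with which killer T cells trigger Fas. The lean VAT libraries held 337, 382, 376 and 365 CPM and the lean LN libraries 9.25, 0.611, 8.38 and 4.72 CPM. The HFD VAT libraries held 389, 358, 300 and 244 CPM and the HFD LN libraries 0, 41.7, 17.0 and 18.8 CPM. Every VAT library was above every LN library in both diets, and lean VAT was the most even group, with a coefficient of variation of 5.50%. The ratio of means was 63.6 in lean animals (log2 fold change 5.99 ± 1.36 SE, adjusted p = 0.0264) and 16.6 on HFD (4.06 ± 1.24, adjusted p = 0.0887, not past the threshold). Over the diets the log2 fold change was 5.02 ± 0.92 (adjusted p = 0.00286). The call in lean animals was lost without any 1 of the 4 lean LN libraries or of lean VAT replicates 2, 3 and 4, and without the 3 VAT libraries (adjusted p 0.0526 to 0.104 over these). With no filter on low counts it was lost too (adjusted p = 0.0549). On HFD the call was gained without HFD LN replicate 1, the library with no Fasl count (adjusted p = 0.0118).

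Tnfsf10 encodes TRAIL, a death ligand that type I interferon induces in many immune cells. Lean LN cells had almost none: 5, 0, 0 and 5 counts in the 4 libraries, or 0.0729, 0, 0 and 0.0934 CPM. Lean VAT libraries held 50.2, 145, 75.2 and 186 CPM. HFD LN libraries held 5.15, 6.10, 7.42 and 0 CPM, and HFD VAT libraries 95.0, 185, 77.8 and 25.0 CPM. In both diets all VAT libraries exceeded all LN libraries, and within a tissue the diets overlapped. The tissue difference was a log2 fold change of 11.32 ± 1.90 in lean animals (adjusted p = 0.00292, 25 of 25 alternatives called) and 4.36 ± 1.40 on HFD (a 20.5-fold ratio of means, adjusted p = 0.103). The lean ratio rests on 10 counts in LN and its size is therefore loosely set. Over the diets the log2 fold change was 7.84 ± 1.17 (adjusted p = 0.000547).

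Fas encodes the death receptor itself, which activated T cells carry and which limits their lifespan. Its levels spread widely in each group. Lean LN libraries held 38.3, 78.3, 45.2 and 28.2 CPM and HFD LN libraries 29.9, 105, 33.9 and 11.8 CPM. Lean VAT libraries held 93.0, 52.0, 52.2 and 31.4 CPM and HFD VAT libraries 90.7, 51.6, 40.2 and 208 CPM. Replicate 4 of HFD VAT was the highest of the 16, and the ranges of all 4 groups overlapped. The log2 fold change of VAT against LN was 0.27 ± 0.66 in lean animals (adjusted p = 0.987) and 1.11 ± 0.67 on HFD (adjusted p = 0.436), and over the diets 0.69 ± 0.47 (adjusted p = 0.443). The value on HFD was 0.43 without HFD VAT replicate 4 (adjusted p = 0.835) and 1.96 without HFD LN replicate 2 (adjusted p = 0.153). A modest difference in Fas could not be resolved at this spread, so the data do not show that the receptor was alike in the tissues.

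Casp8 encodes caspase-8, the initiator protease downstream of these receptors. It was detected in every library at 212 CPM or more with a coefficient of variation of 18.8% to 23.0% in the 4 groups. HFD VAT libraries held 774, 634, 511 and 469 CPM, lean VAT libraries 333, 368, 490 and 338 CPM, HFD LN libraries 330, 215, 306 and 335 CPM, and lean LN libraries 288, 350.3, 276 and 212 CPM. On HFD all VAT libraries lay above all LN libraries. In lean animals the tissues overlapped. Casp8 was 2.02-fold higher in VAT on HFD (597 ± 137 against 296 ± 55.8 CPM; log2 fold change 1.01 ± 0.21, adjusted p = 0.0130) and 1.36-fold in lean animals (0.44 ± 0.21, adjusted p = 0.380). The call on HFD was lost without the 3 VAT libraries of large missing share (log2 fold change 0.88, adjusted p = 0.0737), 2 of which are the HFD VAT libraries at 774 and 511 CPM. Whether the tissue difference depends on diet was tested directly and did not pass (difference of log2 fold changes 0.57 ± 0.30, adjusted p = 0.860).

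Casp1 encodes caspase-1, the protease of the inflammasome. Lean VAT libraries held 76.6, 229, 312 and 167 CPM against 7.49, 30.4, 10.4 and 0 CPM in lean LN. HFD VAT libraries held 245, 121, 204 and 178 CPM against 11.4, 25.0, 17.4 and 10.9 CPM in HFD LN. The groups did not overlap in either diet, and the means were 16.2-fold and 11.5-fold apart. Neither comparison passed over all genes (log2 fold change 4.02 ± 1.19, adjusted p = 0.103, and 3.53 ± 1.17, adjusted p = 0.114), but the difference over the diets did (3.77 ± 0.83, adjusted p = 0.0101). Without lean LN replicate 4, the library with no Casp1 count, both passed (adjusted p = 0.00727 in lean animals and 0.00225 on HFD).

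Casp4 encodes the caspase that senses cytosolic lipopolysaccharide. In LN it was seen in 1 library of each diet: replicate 4 of lean LN held 7.64 CPM (409 counts) and replicate 1 of HFD LN 8.42 CPM (494 counts), and the other 6 LN libraries held at most 3 counts. Lean VAT libraries held 60.2, 50.5, 63.6 and 49.4 CPM and HFD VAT libraries 103, 37.0, 72.5 and 88.4 CPM. Every VAT library was thus above every LN library. The differences did not pass (log2 fold change 4.87 ± 2.56, adjusted p = 0.463 in lean animals, and 5.15 ± 2.59, adjusted p = 0.313 on HFD). The difference over the diets, 5.01 ± 1.82, did not pass either (adjusted p = 0.104). It passed without lean LN replicate 4 (adjusted p = 0.0136) or HFD LN replicate 1 (0.0226), the 2 libraries that held the LN counts. Casp4 and Tnfsf10 passed the filter on low counts through VAT, and Gadd45a passed it through LN, so that a tissue difference was a condition of their being tested.

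Casp1 and Casp4 are neighbours on mouse chromosome 9 and Casp12 lies next to them, which RefSeq's GRCm38.p6 table shows. Casp12 had too few counts to be tested. In the transcripts of GENCODE M21 none of the 36 pairs of the 9 genes shares a run of 31 bases, but 8.36% of the 31-base runs of Casp8 also occur in other genes, against at most 1.45% in the other 8, so its level carries that uncertainty. The promoters of Casp1 and Casp4 (neighbours that were both higher in VAT) and of Fas (the gene with no call) are printed below from RefSeq (GRCm38.p6, 250 bases before to 50 after the start site, all on the plus strand). Casp1 is at chr9:5298267-5298566, Casp4 (the first of its listed starts) at chr9:5308599-5308898 and Fas at chr19:34290409-34290708. Capitals mark motif matches.
Casp1: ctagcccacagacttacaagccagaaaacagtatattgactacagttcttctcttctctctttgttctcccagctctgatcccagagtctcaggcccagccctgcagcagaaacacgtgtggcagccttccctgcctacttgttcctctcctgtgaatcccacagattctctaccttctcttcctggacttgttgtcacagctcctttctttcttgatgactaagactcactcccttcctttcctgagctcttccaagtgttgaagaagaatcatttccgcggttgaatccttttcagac
Casp4: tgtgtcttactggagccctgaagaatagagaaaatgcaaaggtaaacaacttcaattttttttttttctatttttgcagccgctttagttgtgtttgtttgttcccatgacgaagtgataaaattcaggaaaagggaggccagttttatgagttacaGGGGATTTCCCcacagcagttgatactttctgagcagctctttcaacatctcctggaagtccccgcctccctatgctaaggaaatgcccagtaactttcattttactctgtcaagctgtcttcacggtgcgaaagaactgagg
Fas: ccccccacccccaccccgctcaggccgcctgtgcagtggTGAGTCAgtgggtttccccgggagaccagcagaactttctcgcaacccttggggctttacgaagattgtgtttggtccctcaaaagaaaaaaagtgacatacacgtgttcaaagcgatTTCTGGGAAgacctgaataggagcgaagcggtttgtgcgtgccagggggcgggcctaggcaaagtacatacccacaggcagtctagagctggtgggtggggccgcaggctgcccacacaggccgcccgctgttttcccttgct
Motifs were searched on both strands in all 32851 promoters of the table, which holds all 9 genes: the ISRE core by name (3.44% of promoters), the GAS element TTCNNNGAA (8.3%), the AP-1 site TGANTCA (7.81%), the CRE TGACGTCA (1.79%) and the kappaB consensus by name (4.51%). Casp4 held overlapping kappaB matches that begin 93 and 92 bases before the start site. Fas held an AP-1 match that begins 211 bases before it and a GAS match that begins 93 bases before it. The windows of the other 7 genes, Casp1 included, held none of the 5 motifs. The 3 GADD45 promoters had a GC content of 61.0% to 62.3% and 14 to 24 CpG dinucleotides, where Casp1 and Casp4 had 48.0% and 42.0% with 3 and 5, and the median GC content of all promoters was 52.7%.

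The GADD45 genes did not move as a family. Gadd45g was the 1 gene of the 9 whose tissue difference passed in both diets by edgeR. DESeq2 called Casp1, Fasl, Gadd45g and Tnfsf10 in both diets, and voom called Casp4, Fasl, Gadd45g and Tnfsf10 in both. These methods also called more of all 15675 genes tested. On HFD 1186 rose in VAT by DESeq2 and 626 by voom, against 420 by edgeR. In lean animals 907 rose by DESeq2 and 853 by voom, against 332 by edgeR. For Gadd45g, lean VAT libraries held 480, 229, 156 and 176 CPM against 10.7, 57.4, 16.6 and 13.5 CPM in lean LN. HFD VAT libraries held 278, 275, 372 and 188 CPM against 11.8, 19.5, 8.21 and 13.9 CPM in HFD LN. All VAT libraries were above all LN libraries, and lean LN replicate 2 was the only LN library above 20 CPM. The log2 fold change was 3.40 ± 0.57 in lean animals (10.6-fold, adjusted p = 0.00289) and 4.38 ± 0.60 on HFD (adjusted p = 0.000464), and both passed in 25 of 25 alternatives.

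Gadd45b, the NF-kB-inducible member, was also at higher levels in VAT. Lean VAT libraries held 125, 77.5, 56.5 and 74.8 CPM against 15.9, 10.4, 7.76 and 8.01 CPM in lean LN. HFD VAT libraries held 56.6, 53.4, 107 and 37.8 CPM against 31.7, 10.2, 11.5 and 0.0638 CPM in HFD LN. The groups did not overlap in either diet. The ratio of means was 7.94 in lean animals (log2 fold change 2.99 ± 1.01, adjusted p = 0.168) and 4.77 on HFD (2.25 ± 0.98, adjusted p = 0.233), and neither passed. The difference over the diets passed (2.62 ± 0.71, adjusted p = 0.0301), but the call was lost in 11 of 24 alternatives, with an adjusted p of up to 0.131 without the 3 VAT libraries. Libraries whose removal alone lost it were HFD LN replicates 2 and 3, HFD VAT replicate 3, lean LN replicates 2, 3 and 4 and lean VAT replicates 1, 2 and 4.

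Gadd45a, the p53 target of the family, was the 1 gene of the 9 with less RNA in VAT. HFD LN libraries held 19.0, 5.20, 12.4 and 11.6 CPM. In HFD VAT replicate 1 held 0.982 CPM (45 counts) and the other 3 libraries had no count. Lean LN libraries held 5.45, 0, 5.44 and 7.43 CPM and lean VAT libraries 0, 7.18, 0.0213 and 1.93 CPM. The groups were apart on HFD and overlapped in lean animals. Neither difference passed (log2 fold change -5.60 ± 2.61, adjusted p = 0.267 on HFD, and -1.0 ± 2.17, adjusted p = 0.979 in lean animals). In RefSeq's table the noncoding RNA gene E230016M11Rik overlaps Gadd45a, and the strand of the reads is not given in the sources used here, so their reads may not be separable. E230016M11Rik held 24.0, 0, 43.0 and 25.8 CPM in HFD LN and at most 1 count in each VAT library.

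**Figure D2:**
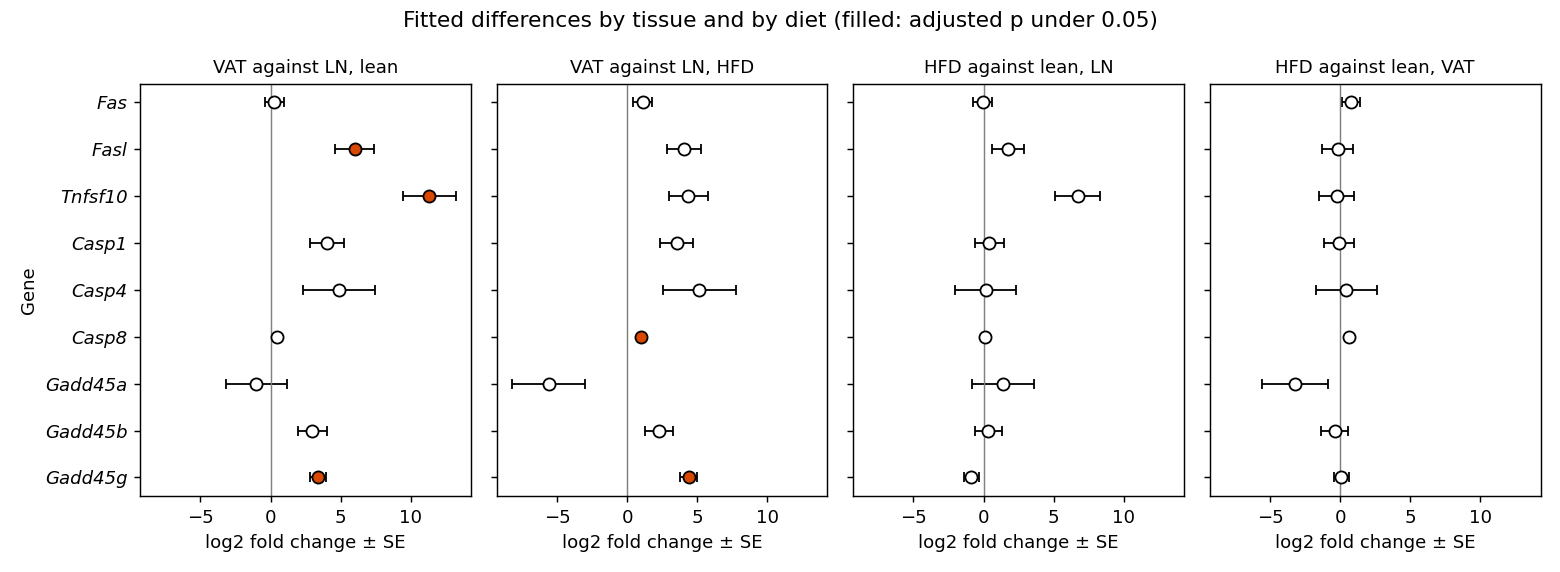
Fitted log2 fold change of each gene (x axis, with bars of 1 SE implied by edgeR's F statistic) for VAT against LN in lean and HFD animals and for HFD against lean in LN and VAT. Filled points passed an adjusted p of 0.05. Tissue differences are positive for 8 of 9 genes in both diets, and no point of the 2 diet panels is filled.

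The diet comparisons asked whether HFD changed these genes within a tissue. None of the 9 passed in VAT (1 had an unadjusted p under 0.05), none in LN (1 had) and none in the test of whether the diet effect differed between tissues (1 had). In all genes tested 0.0574% passed by edgeR in VAT, 0% in LN and 0.0191% in the difference. DESeq2 called far more of the 15675 genes: 769 in VAT, 236 in LN and 635 in the difference. In neither tissue did the libraries of the diets lie apart for any of the 9, as they did for 3.22% of all genes in VAT and 2.26% in LN. In VAT the gene was Casp8, 1.56-fold higher on HFD (597 ± 137 against 382 ± 73.6 CPM; log2 fold change 0.64 ± 0.21, adjusted p = 0.432). In 15 of the 16 pairs of a HFD and a lean VAT library the HFD library was higher, and DESeq2 called it (adjusted p = 0.0278). In LN the gene was Tnfsf10, whose 950 counts in HFD LN stood against 10 in lean LN (4.67 ± 3.25 against 0.0416 ± 0.0487 CPM; log2 fold change 6.71 ± 1.59, adjusted p = 0.961). Replicate 4 of HFD LN had no count and so lay with the lean libraries. DESeq2 called this difference (adjusted p = 2.58e-05) and the difference between diet effects (log2 -6.94, adjusted p = 0.00369), which edgeR gave as -6.96 ± 1.93 (adjusted p = 0.428). Limma's voom called none of the 9 in these comparisons.

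Ordered by mean, lean VAT was highest for Fasl, Tnfsf10, Casp1 and Gadd45b, HFD VAT was highest for Fas, Casp4, Casp8 and Gadd45g, and HFD LN was highest for Gadd45a. In each of the 9 genes the highest group overlapped the next, and the lowest overlapped the one above it. For Fasl, Tnfsf10, Casp1, Casp4, Gadd45b and Gadd45g the one gap without overlap fell between the tissues. In Fas, Casp8 and Gadd45a all neighbouring groups overlapped. On HFD 7 of 9 genes had VAT libraries all above LN libraries, against 7.21% of all genes tested, and in lean animals 6 of 9 did, against 7.24% (none was all below, against 5.7%). Gadd45a alone was all below on HFD, where 8.01% of all genes were. These counts include Casp4 and Tnfsf10, which passed the filter on low counts through VAT, and Gadd45a, which passed it through LN. The 9 genes were also picked with earlier results known, so the counts describe them and are no test.

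**Figure D3:**
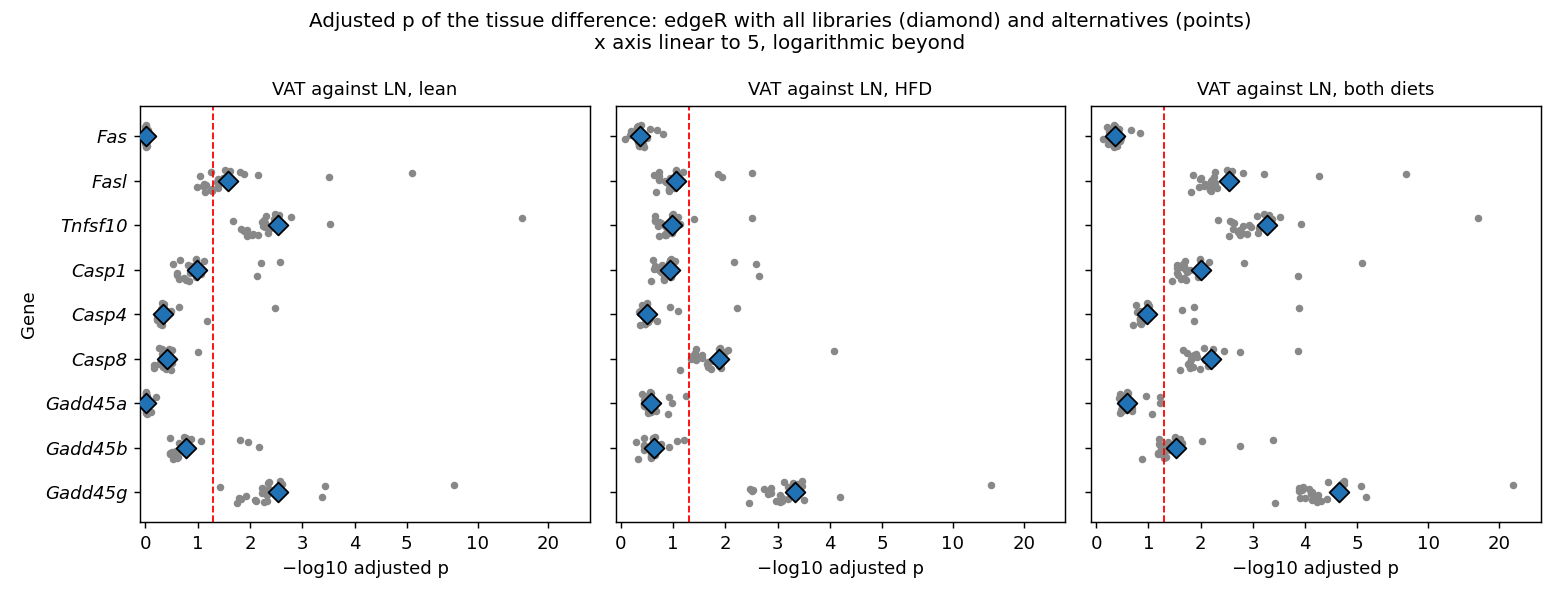
Adjusted p of the tissue difference of each gene as −log10 (x axis, linear to 5 and logarithmic beyond) in lean animals, on HFD and over the diets. Diamonds are edgeR with all libraries, grey points are the alternatives in normalisation, filter, test, block and libraries, and the dashed line is 0.05. Gadd45g lies right of the line at every setting in all panels, Tnfsf10 in lean animals and over the diets, and Fasl, Casp1 and Casp8 over the diets. Fas and Gadd45a lie left of it at every setting.

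The genes around these 9 were described in 6 lists fixed by name, with 8 to 16 members tested in each. All that passed in either diet were higher in VAT, and their counts stand against 2.12% of all genes tested that rose in lean animals and 2.68% on HFD. Among other death ligands and receptors, 1 of 8 rose in each diet: Tnfrsf1b, the TNF receptor TNFR2 that lacks a death domain (483 ± 97.7 against 111 ± 31.9 CPM on HFD, log2 fold change 2.13 ± 0.39, adjusted p = 0.00520; 362 ± 107 against 109 ± 62.5 CPM in lean animals, adjusted p = 0.0232). The lean call was lost in 7 of 25 alternatives (adjusted p up to 0.108), among them leaving out lean LN replicate 3 or 4 or lean VAT replicate 2, 3 or 4. Tnf itself was far above LN in VAT and did not pass, at 166 ± 60.0 against 2.26 ± 4.50 CPM in lean animals (adjusted p = 0.288). Tnfrsf10b, the mouse receptor for TRAIL, was low, with 7.27 ± 5.11 CPM in lean VAT and 1.16 ± 2.08 CPM in HFD VAT.

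Of 12 death receptor adaptors and inhibitors, 1 rose on HFD and none in lean animals (0 of 12 by edgeR). It was Birc3, a ubiquitin ligase that blocks caspase-8 activation at receptors (225 ± 59.4 against 65.1 ± 32.0 CPM, log2 fold change 1.79 ± 0.47, adjusted p = 0.0455), and the call was lost in 18 of 25 alternatives (adjusted p up to 0.125), among them the removal of any 1 library of HFD LN or HFD VAT. Cflar, the catalytically dead relative that competes with caspase-8, had 95.1 ± 35.4 against 68.8 ± 21.2 CPM on HFD (adjusted p = 0.780). Of 14 genes of the executioner and mitochondrial route, 1 rose in each diet. This was Cycs, which encodes cytochrome c (log2 fold change 2.06 ± 0.25, adjusted p = 0.000170 on HFD, and 1.84 ± 0.25, adjusted p = 0.000516 in lean animals).

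The inflammasome, pyroptosis and necroptosis list had 1 of 12 that rose on HFD and 3 of 12 in lean animals. Zbp1, an interferon-inducible sensor of Z-form nucleic acid that can start necroptosis, led in both (1901 ± 222 against 70.3 ± 34.6 CPM on HFD, log2 fold change 4.76 ± 0.34, adjusted p = 2.71e-06; 1411 ± 155 against 71.7 ± 20.6 CPM in lean animals, adjusted p = 7.54e-06). Mlkl, which forms the pore of necroptosis, had no count in lean LN and 41.3 ± 48.7 CPM in lean VAT, which is at least 781-fold higher than the floor of 3 counts per LN library (adjusted p = 0.0252). Lean VAT ran from 3.59 to 111 CPM, and without its highest library, replicate 1, the bound was 342-fold. Like Casp4, Mlkl passed the filter on low counts through VAT, which bears on its place in the count above. Its call was lost without any 1 of the 4 lean LN libraries, without lean VAT replicate 3 or without the 3 VAT libraries (adjusted p up to 0.0975). On HFD it had 62.0 ± 19.8 against 1.76 ± 2.89 CPM (adjusted p = 0.198). Ripk3, the kinase that activates MLKL, was outside the rule for named genes and is given after its values were seen: 103 ± 70.1 against 24.5 ± 11.3 CPM in lean animals (adjusted p = 0.0354, lost in 16 of 25 alternatives, with up to 0.173). On HFD Ripk3 overlapped between the tissues, at 108 ± 28.35 against 70.6 ± 10.5 CPM (adjusted p = 0.600, called in 0 of 25 alternatives). Gsdmd, the pore protein cut by caspase-1 and caspase-4, had 247 ± 66.8 against 196 ± 59.0 CPM on HFD (adjusted p = 0.773) and 193 ± 86.1 against 200 ± 73.0 CPM in lean animals (adjusted p = 0.998). Pycard, the inflammasome adaptor, had 36.9 ± 30.1 against 48.8 ± 22.2 CPM on HFD (adjusted p = 0.836). Il1b and Il18, the caspase-1 substrates, had too few counts to be tested.

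**Figure D4:**
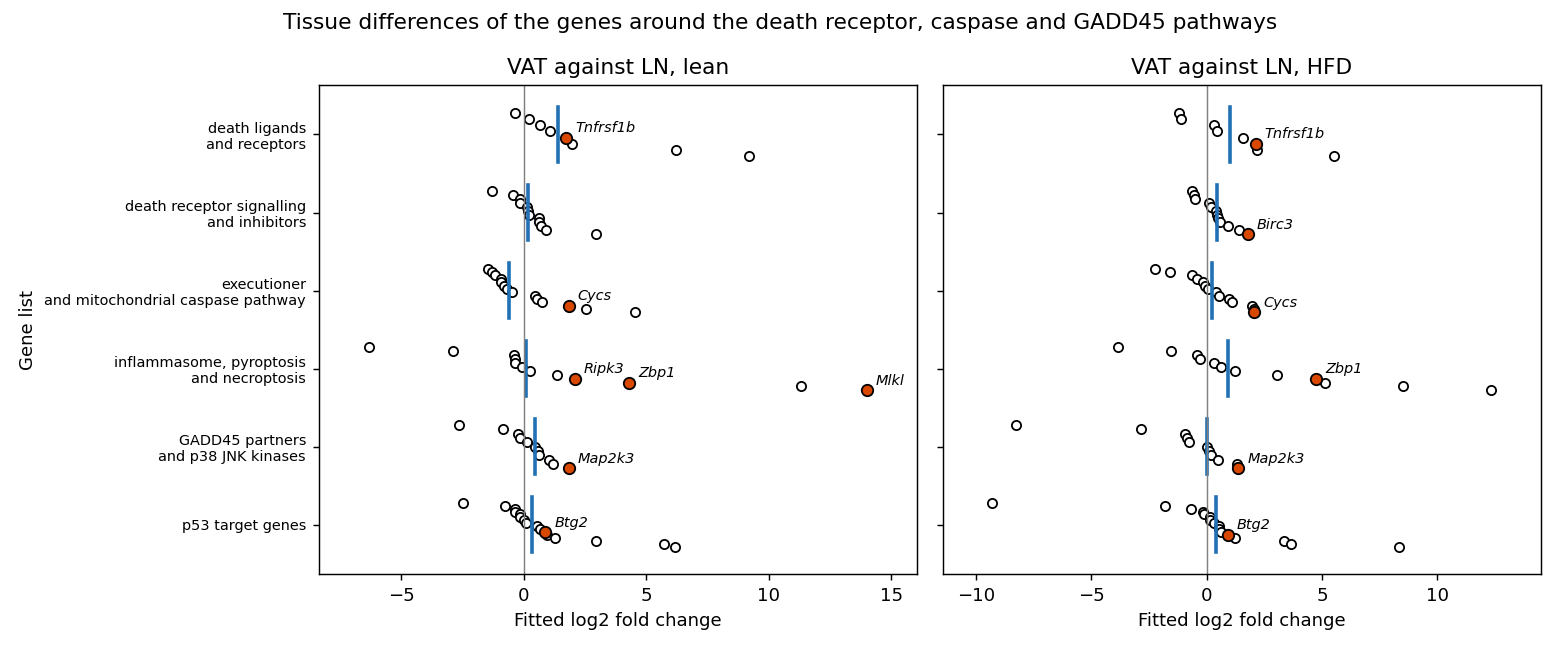
Fitted log2 fold change of VAT against LN (x axis) for every tested gene of the 6 lists in lean and HFD animals. Filled, named points passed an adjusted p of 0.05 and the vertical blue line is the median of the list. All filled points lie on the right, and most genes of each list are unfilled. Large fitted values of genes with no count in a group depend on edgeR's prior count.

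Of 11 tested partners of GADD45 and kinases of the p38 and JNK route, 1 rose in each diet. It was Map2k3, which encodes the p38 kinase MKK3 (303 ± 85.1 against 85.0 ± 14.6 CPM in lean animals, log2 fold change 1.84 ± 0.32, adjusted p = 0.00447; 186 ± 63.9 against 71.4 ± 25.9 CPM on HFD, 1.38 ± 0.32, adjusted p = 0.0232). The call on HFD was lost in 8 of 25 alternatives (adjusted p up to 0.0948), among them leaving out HFD LN replicate 1 or 3 or HFD VAT replicate 2 or 3. Of 16 tested genes of the p53 list, which holds Trp53 itself and its targets, 1 rose in each diet, Btg2, an antiproliferative gene (log2 fold change 0.91 ± 0.22, adjusted p = 0.0273 on HFD, and 0.88 ± 0.22, adjusted p = 0.0414 in lean animals). Its call was lost in 6 of 25 alternatives on HFD and in 18 of 25 in lean animals (adjusted p up to 0.0901 and 0.148), each of HFD LN replicates 1, 3 and 4 and HFD VAT replicates 1 and 4 being enough to end it on HFD. Over the diets 2 of 16 rose, where 5.77% of all genes tested did. The other was Cdkn1a, which encodes the cell cycle inhibitor p21 and was named after its value was seen (47.7 ± 36.4 CPM in lean and 30.8 ± 21.2 CPM in HFD VAT, against 0.905 ± 1.5 and 3.04 ± 3.38 CPM in LN; log2 fold change 4.53 ± 1.21, adjusted p = 0.0291). That call was lost in 8 of 24 alternatives (adjusted p up to 0.0742), among them leaving out HFD LN replicate 4, lean LN replicate 1, 2 or 4 or lean VAT replicate 1. Not all of the p53 list was higher in VAT: 11 of its 16 fitted values were positive on HFD and 9 in lean animals. For Sesn1, also named after its values were seen, all VAT libraries lay below all LN libraries in both diets. It had 52.7 ± 22.3 against 291 ± 80 CPM in lean animals (adjusted p = 0.370). On HFD it had 61.9 ± 55.0 against 219 ± 39.1 CPM (adjusted p = 0.456), with 1 VAT library at 0. The median log2 fold changes of the 6 lists were 0.02 to 1.01 on HFD and -0.58 to 1.40 in lean animals.

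For each of the 9 genes the 2 tested genes of most similar profile over the 16 libraries were found by the root mean square difference of centred log2(CPM + 0.5) values, which is given here in log2 units beside the spread of the gene itself. Gadd45g (spread 2.09) lay nearest to Ifi27l2b (0.39) and Ifi27l2a (0.41), 2 interferon-inducible genes. Casp1 (2.46) lay nearest to Abcb1a (0.48) and Cd200r4 (0.73). Fasl (3.19) lay nearest to the guanylate-binding protein gene Gbp6 (0.89) and the killer cell receptor gene Klre1 (0.99). Tnfsf10 (3.32) lay nearest to Parp12 (1.34) and Oas1g (1.41). Casp8 (0.50) lay nearest to the GTPase genes Gimap3 (0.28) and Gimap6 (0.28). Gadd45b (1.92) lay nearest to Pmepa1 (0.96) and Cebpb (1.01), Casp4 (3.23) to Tg (1.13) and Ctla4 (1.19), Gadd45a (1.97) to Map7 (0.88) and Prcc (1.02), and Fas (0.92) to Tsr3 (0.50) and Atox1 (0.59). These profiles share the libraries and their depth, and a small difference mostly means a like split between the tissues.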

How the data were processed

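Raw counts per gene were deposited by the authors as whole numbers with no normalisation, 1 column per library. The submitters' processing notes say that the tools were kallisto 0.42.4 and DESeq2 and the build was GRCh38, which is human although the gene names are those of mouse, and how estimates became whole counts is not given in the sources used here. The labels name more than 1 library kit and sequencer, and a growth protocol of another cell type. The build behind the counts is thus not known, and the printed promoter coordinates belong to RefSeq's GRCm38.p6 only.

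The 15675 genes that passed edgeR's filterByExpr were tested with edgeR 4.0.16 in R 4.3.3 (TMM, robust quasi-likelihood test, 1 model for the 4 groups), with Benjamini-Hochberg adjustment over all of them and a threshold of 0.05. The comparisons were VAT against LN in each diet and averaged over diets, HFD against lean in each tissue, and the difference between the diet effects. Comparisons that share libraries are not independent. Standard errors are the absolute log2 fold change over the square root of F. Ratios are of mean CPM. SDs and standard errors reflect the spread between libraries. The floor of 3 counts covers counting error only, and may understate it, since reads are PCR copies.

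The members and gene lists were chosen with earlier results of these data known. All 9 members were named. Of each of the 6 lists, up to 2 genes per direction and comparison were named that passed the test and reached 5 CPM, by smallest adjusted p, and for each member the 2 genes of most similar profile, leaving out unnamed gene models, mitochondrial genes and receptor segments. The 25 alternatives were upper quartile or RLE scaling, a filter of 5 CPM in 4 libraries or none, DESeq2 1.42.0, limma 3.58.1 voom with sample weights, a fit of the compared groups alone (not possible where all 4 groups enter, which leaves 24), the replicate number as a block, leaving out each of the 16 libraries, and leaving out the 3 VAT libraries of large missing share. The labels call the libraries biological replicates and name no animals, so p-values measure the spread between libraries, and no 2 replicates were alike within sampling noise (chi-square over its degrees of freedom 266 to 992). The pipeline was run on negative binomial counts simulated with known changes, and no result given here rests on that run. Python 3.11.15 with pandas 2.3.3 and Matplotlib 3.10.9 made the summaries and plots.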

Additional observations from a re-analysis of the deposited data

Results flagged for a closer look

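In 4 of 36 sets of 4 libraries for the 9 genes and in 3 of 36 for the 9 pathway genes, a library stood apart from the other 3, by a gap to the nearest that took up most of the range of its group (Dixon's test). About 1 in 20 sets would do so by chance if levels were normally distributed, so this rate does not hold for sets with libraries at 0. The set of Mlkl in lean LN, at 0 in all its libraries, could not be flagged. Casp4 was 7.64 CPM in replicate 4 of lean LN, where the other 3 libraries had no count, and 8.42 CPM in replicate 1 of HFD LN, where the next library had 0.0661 CPM. Gadd45a was 0.982 CPM in replicate 1 of HFD VAT and 0 in the others. Gadd45g was 57.4 CPM in replicate 2 of lean LN against 16.6 CPM in the next, and its lean tissue difference without that library was a log2 fold change of 4.25. Birc3 was 53.6 CPM in replicate 1 of lean VAT against 203 CPM in the next, and that library has the largest share of missing genes. Cdkn1a was 3.15 CPM in replicate 3 of lean LN against 0.248 CPM in the next. Mlkl was 6.04 CPM in replicate 4 of HFD LN against 0.989 CPM in the next.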

How the results depend on the processing

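Over 1329 values of the 9 genes in 25 alternatives, 1248 kept direction and side of the threshold, 22 fell below it, 23 passed it and 36 turned sign, none of them called. The cause of these changes was not tested. On HFD 2 genes passed for tissue, 5 with DESeq2, 5 with voom and 1 without the 3 VAT libraries. In lean animals 3 passed, 5 with DESeq2 and with voom, and 2 with no filter (Fasl lost, adjusted p = 0.0549) and without the 3 VAT libraries. For diet in VAT, diet in LN and their difference 0 passed, and 1 each with DESeq2 (Casp8, Tnfsf10 and Tnfsf10). Leaving out 1 library at a time gave 2 to 3 on HFD, 2 to 4 in lean animals, 5 to 7 over the diets (6 with all) and 0 for diet. Over all genes, 714 were called for tissue on HFD (441 with no filter, 2578 with DESeq2), 476 in lean animals (1569 with DESeq2, 1373 with voom), 1614 over the diets (1020 with no filter, 3395 with DESeq2, 2523 with voom), 9 for diet in VAT (769 with DESeq2, 62 without the 3 VAT libraries, 32 with voom, 2 with no filter, 0 with only the groups compared, 3 to 40 leaving out 1 library), 0 in LN (236 with DESeq2, 3 with voom, 0 to 1 leaving out 1 library) and 3 for the difference (635 with DESeq2, 46 without the 3 VAT libraries, 6 with voom, 1 with no filter, with the 5 CPM filter or with upper quartile scaling, 0 to 24 leaving out 1 library). Voom moved the median of all genes on HFD from -0.10 to -0.34.

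Same-numbered libraries were hardly correlated in their deviations from group means: over 24 such pairs r was -0.09 to 0.04 (median 0.00489, and 0.000355 in the other pairs). Of 16 libraries, 5 correlated best with their own number. Replicates differed far beyond sampling noise, so this check cannot exclude that libraries of different tissues came from the same animal. With the replicate block 505 genes were called on HFD, 337 in lean animals, 1 for diet in VAT and 0 for the difference, and of the 9 genes 2, 2, 0 and 0, since Fasl lost its lean call (adjusted p = 0.0886). The block turned the diet difference of Casp1 in VAT to 0.14, of Casp4 in VAT to -0.060, of Gadd45b in LN to -0.068, and the difference of diet effects of Casp4 to -0.78.

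Other log2 values that turned were these. Casp1 diet in VAT was 0.00625 with RLE and 0.00625 with DESeq2. With voom, diet in LN was -1.0 for Fasl and -1.35 for Gadd45b, and the difference of diet effects 0.72 for Fasl, 0.92 for Gadd45b and -0.63 for Casp4. Fas in lean tissue was -0.10 without the 3 VAT libraries. Leaving out 1 library gave ranges of -0.076 to 0.62 for Fas in lean tissue, -0.92 to 0.28 for Fas, -6.31 to 9.73 for Casp4, -0.036 to 0.20 for Casp8 and -0.54 to 0.76 for Gadd45b for diet in LN, -0.79 to 0.087 for Tnfsf10, -0.33 to 0.25 for Casp1 and -0.082 to 0.58 for Gadd45g for diet in VAT, and -9.28 to 6.76 for Casp4 and -1.14 to 0.16 for Gadd45b for the difference of diet effects. Depth limits genes near 3 counts throughout a group, such as Tnfsf10 in lean LN (5, 0, 0 and 5 counts). Other groups were split between libraries. Tnfsf10 had 302, 311, 337 and 0 counts in HFD LN, and Casp4 had 494, 0, 3 and 0 there. Gadd45a had 0, 430, 1 and 80 counts in lean VAT. The cause of these splits was not tested.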
